A study of Halocynthia roretzi with 24 samples.

Results

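The animal and the vegetal hemisphere of the 110-cell embryo of the ascidian Halocynthia roretzi were compared by RNA sequencing. Every gene model with at least 1 RPKM in 4 or more of the 8 hemisphere libraries of this stage was included, which gave 11838 of the 16078 models in the expression table. RPKM is reads per kilobase of exon and M (mega) reads, so a value is a share of its library. The 8 libraries are part of a series of 24, in which animal hemispheres, vegetal hemispheres and whole embryos were each represented by 4 libraries, numbered 2 to 5, at 110 and at 8 cells. All groups came from wild type animals of a southwestern Japanese population kept in an inland laboratory over generations, and no treatment is named. How and when the hemispheres were parted is not said in the labels, and neither is what the numbers mark. The p-values therefore measure the spread between these libraries, which may be technical.

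An ascidian is a tunicate, an invertebrate relative of the vertebrates, whose embryo cleaves in a fixed pattern and reaches gastrulation with few cells. In this fixed lineage the animal hemisphere gives mainly epidermis and a large part of the nervous system. The vegetal hemisphere gives endoderm, notochord, mesenchyme, most of the tail muscle and part of the nerve cord. Maternal transcripts laid down in the egg supply the first cleavages, and some of them are held at the posterior vegetal pole. The embryo's own genes are switched on during cleavage, and by the 110-cell stage most cells are restricted to a single tissue.

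The deposited files pair the gene models with the identifier of a best match, in most cases one that starts with KH, and not with gene names. Of 4 lists of marker genes only ND5, a mitochondrially encoded subunit of respiratory complex I, could be found, so the hemisphere labels could not be checked against tissue markers. Genes are given below by the identifiers of the files without their shared prefix Harore.CG.MTP2014., and positions are those of the annotation the authors deposited, on its numbered scaffolds. No function is given for them. In libraries of whole hemispheres, fewer cells that express a gene and less RNA of it in each cell cannot be told apart.

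Depth, read from the steps between low RPKM values, was about 5.66 to 7.49 M reads in genes in animal libraries and 3.60 to 5.42 M in vegetal libraries. A model with 1.5 kb of exons needed 0.267 to 0.354 RPKM in animal libraries, and 0.369 to 0.555 RPKM in vegetal ones, to reach 3 reads. The vegetal library of number 5 stood apart from the other 3 in its level of animal-higher genes, as described below, and the main counts are also given without number 5. The edge of the filter held 561 models that reached 1 RPKM in exactly 4 libraries, with a median of 1.62 RPKM over the 8 libraries, and 465 just outside it that did so in 3, with a median of 0.954 RPKM. Of the 561, 225 reached 1 RPKM in every vegetal library and in no animal library, and 34 showed the reverse pattern.

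Between the hemispheres 1226 of 11838 gene models differed (10.4%), 562 higher in the animal hemisphere (4.75%) and 664 higher in the vegetal hemisphere (5.61%). The call was made with limma on log2(RPKM + 1), with the replicate number as a block and a Benjamini-Hochberg adjusted p under 0.05. Animal-higher models had a median log2 difference, animal minus vegetal, of 1.16, with 10th and 90th percentiles of 0.42 and 2.98. Vegetal-higher models had a median of -1.83, with percentiles of -3.98 and -0.48. The median over all models tested was 0.07. A difference of at least 4-fold on this scale was reached by 158 animal-higher models (28.1% of the calls) and 297 vegetal-higher models (44.7%), and of at least 8-fold by 55 and 153. Differences under 1.5-fold made up 170 animal-higher and 115 vegetal-higher calls. Without the block 254 animal-higher and 482 vegetal-higher models were called, and without number 5 the counts were 249 and 381. Without number 3 they were 296 and 445. The counts of 4-fold differences moved less, to 145 and 294 without the block, 144 and 272 without number 5, and 147 and 298 without number 3. Leaving out the block does not alter the log2 differences, and larger differences tend to keep their call, so this stability is partly built in. The 4-fold counts depend on the pseudocount by construction, at 207 and 386 with 0.1 RPKM and 64 and 103 with 5 RPKM.

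**Figure D1:**
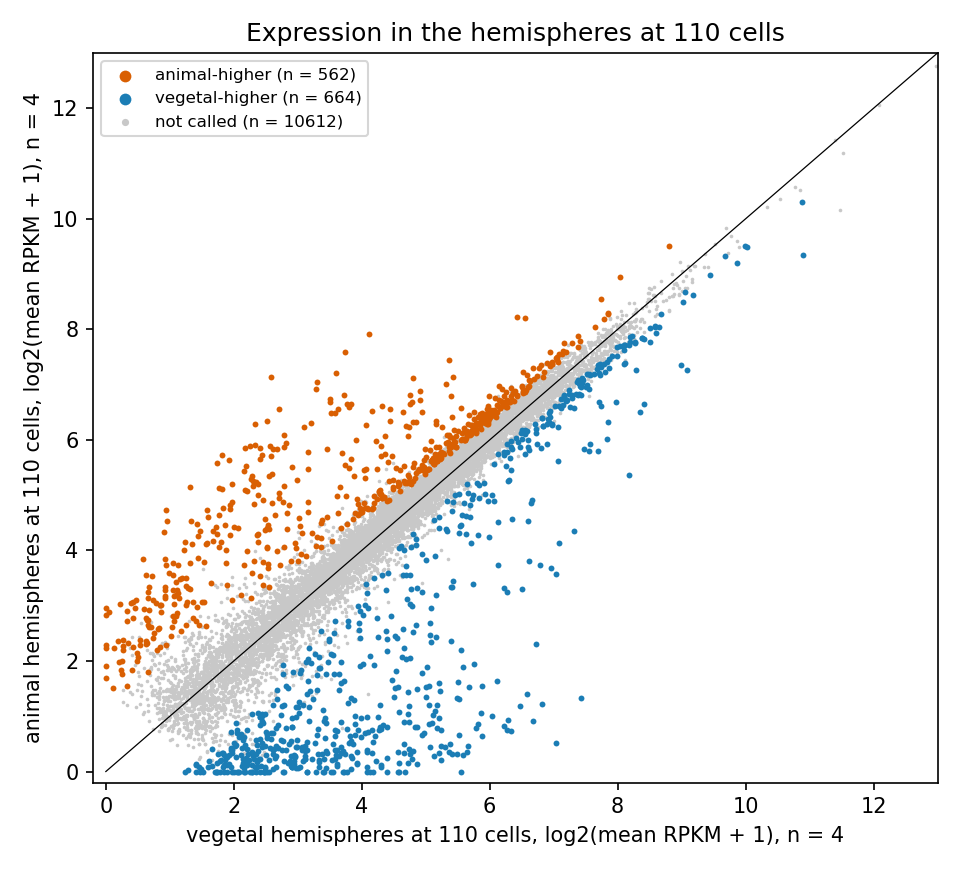
Mean RPKM of each gene model in the 4 animal libraries (vertical axis) and the 4 vegetal libraries (horizontal axis) at 110 cells, as log2(RPKM + 1), with 562 animal-higher models in orange, 664 vegetal-higher models in blue and the rest in grey. Many blue points lie along the bottom of the plot, near 0 in animal libraries, and fewer orange points lie along its left edge.

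The libraries of each number showed the called difference almost throughout. The sign was the called sign for 562 of 562 animal-higher models in numbers 2, 3 and 5 and for 561 in number 4, and for 664 of 664 vegetal-higher models in every number. These libraries made the calls, so the counts describe them and are no further test. All 4 animal libraries lay above all 4 vegetal libraries for 358 animal-higher calls, and over all tested models for 586 (4.95%). All 4 vegetal libraries lay above all 4 animal libraries for 554 vegetal-higher calls, and over all tested models for 684 (5.78%).

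Named models, except those picked for the change between stages, were chosen among models whose groups did not overlap. Their lack of overlap is thus no further result. The pair of animal-higher models with the largest difference rose well above a low vegetal level. S182.g13272 (scaffold S182, 36269 to 38720, minus strand, best match KH.C2.957) stood at 123, 164, 123 and 148 RPKM in the animal libraries of numbers 2 to 5 and at 2.19, 3.65, 2.44 and 11.8 RPKM in the vegetal libraries. The groups did not overlap, and the vegetal library of number 5 was the highest of its group. The log2 difference was 4.78 ± 0.29 SE (limma adjusted p = 0.000193). S201.g08639 (S201, 127747 to 129546, minus strand, best match KH.C4.71) stood at 259, 109.97, 122 and 279.7 RPKM in animal libraries and at 11.4, 4.56, 0 and 33.7 RPKM in vegetal libraries. Its values also did not overlap, and within each group they spread widely, with numbers 2 and 5 high in both hemispheres. The log2 difference was 4.67 ± 0.55 SE (limma adjusted p = 0.00216).

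The vegetal-higher models with the largest difference were close to 0 in animal hemispheres. S31.g00819 (S31, 110877 to 111266, plus strand, no match named) stood at 0, 0.889, 0 and 0.808 RPKM in animal libraries and at 140.2, 152, 144 and 87.1 RPKM in vegetal libraries. It is a short model, and every animal value lay under the 1.72 RPKM that 3 reads were worth there. The log2 difference was -6.57 ± 0.29 SE (limma adjusted p = 0.000111), a size that depends on the pseudocount. S104.g10185 (S104, 229361 to 231074, minus strand, best match KH.C6.217) stood at 0.884, 2.14, 1.51 and 1.49 RPKM in animal libraries and at 258, 126, 97.7 and 205 RPKM in vegetal libraries. Its animal values were low but above the 0.455 RPKM worth 3 reads, so this transcript was detected in every animal library. The log2 difference was -6.03 ± 0.31 SE (limma adjusted p = 0.000111).

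**Figure D2:**
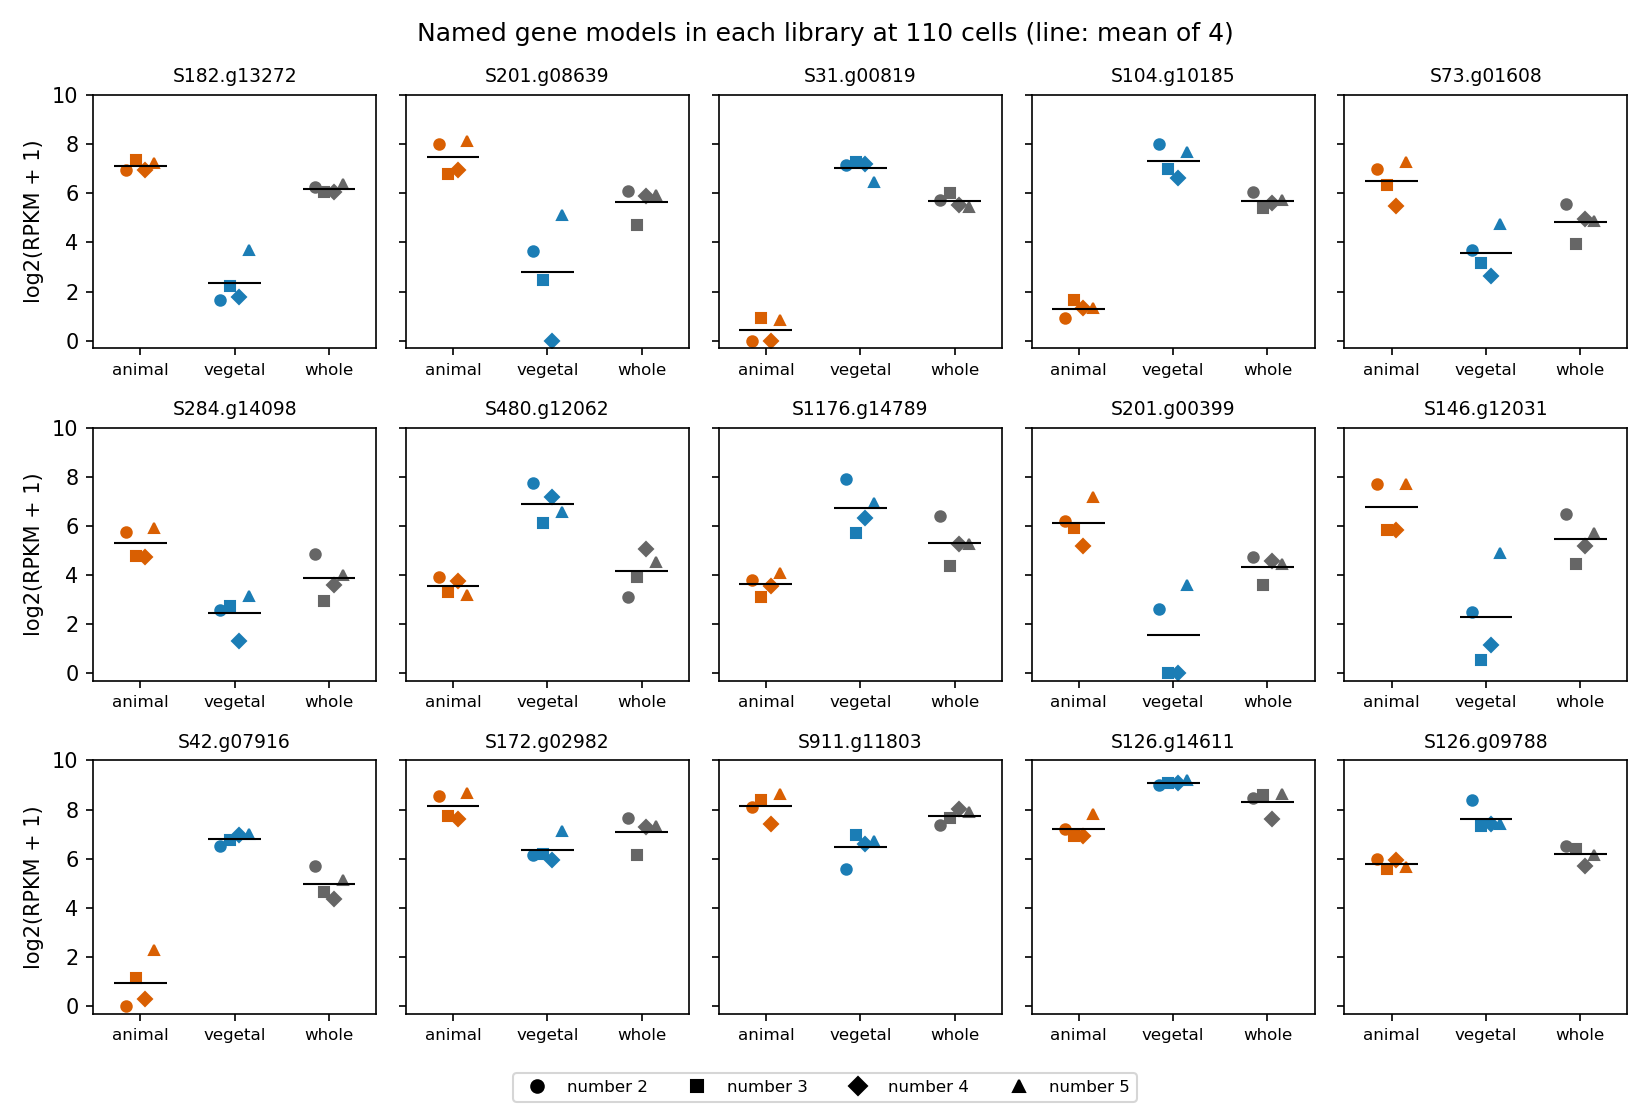
Level of the 15 named gene models in each library at 110 cells, as log2(RPKM + 1), with 1 panel a model, animal libraries in orange, vegetal in blue and whole embryos in grey, a marker shape for each number and a line at the mean of 4. Animal and vegetal points do not overlap in any panel, which the choice required except of models picked for the change between stages. The vegetal library of number 5 (triangle) is the highest of its group in most panels of animal-higher models. In most of these panels the animal library of number 5 is also the highest of its group.

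The hemispheres were not mirror images in how low the other side fell. Among models at least 4-fold different, animal-higher ones stood at a median of 26.02 RPKM in animal hemispheres and 2.67 RPKM in vegetal ones, and the vegetal level was 10.03% of the animal level. Vegetal-higher ones stood at a median of 0.419 RPKM in animal hemispheres and 14.6 RPKM in vegetal ones, and the animal level was 3.27% of the vegetal level. The mean of the lower hemisphere was under 1 RPKM for 38 of 158 animal-higher models (24.1%) and for 213 of 297 vegetal-higher models (71.7%). Over all calls it was under 1 RPKM for 74 of 562 animal-higher and 305 of 664 vegetal-higher models.

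Over the whole expression table, which the filter does not touch, 47 models had a mean of at least 5 RPKM in animal and under 1 RPKM in vegetal hemispheres. The reverse, under 1 RPKM in animal and at least 5 RPKM in vegetal hemispheres, held for 197 models. The highest mean among the 47 was 25.4 RPKM, and 9 reached 10 RPKM. Among the 197 the highest was 131 RPKM, 115 reached 10 RPKM and 9 reached 50 RPKM. In 2 of the 47 the vegetal value was 0 in every library, and in 21 of the 197 the animal value was 0 in every library, although the animal libraries were the deeper ones. Leaving out a number gave 40 to 56 models of the first kind and 192 to 215 of the second. With every library of the lower hemisphere required to be under 1 RPKM, 8 and 121 models were left.

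The level in the other hemisphere was followed number by number, with genes chosen on the remaining numbers. Models at least 4-fold different, and at 10 RPKM or more in the higher hemisphere, in the other 3 numbers were read in the number left out. Animal-higher models stood in the vegetal library at a median of 6.80%, 7.17%, 5.87% and 16.3% of their level in the animal library of numbers 2, 3, 4 and 5 (72, 74, 84 and 71 models). Number 5 stood apart, with quartiles of 13.3% and 20.3% and with 70 of its 71 models above 5%. Vegetal-higher models stood in the animal library at a median of 1.87%, 3.37%, 1.02% and 3.44% of their vegetal level (124, 122, 128 and 111 models). The animal-higher median was the higher in each of the 4 numbers, so the asymmetry did not rest on number 5. Transfer of cells or RNA between the hemispheres, in number 5 or in the other numbers, was not tested.

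**Figure D3:**
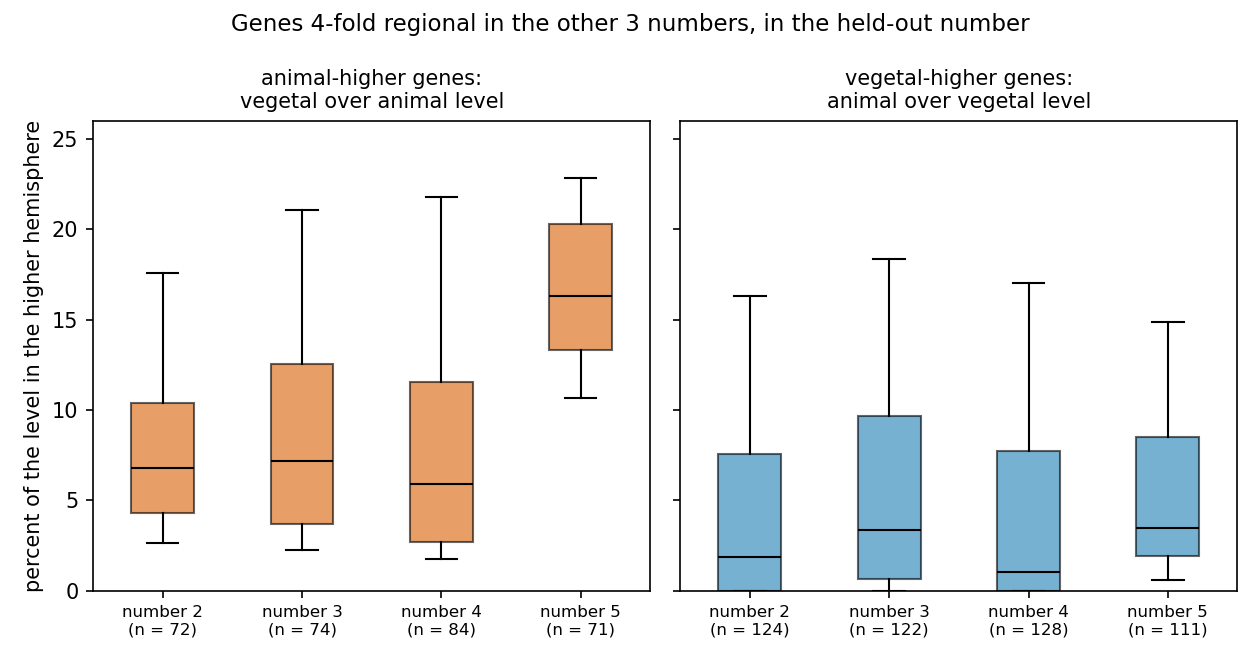
Level in the other hemisphere as percent of the level in the higher hemisphere, for animal-higher models (left, vegetal over animal) and vegetal-higher models (right, animal over vegetal) that were at least 4-fold regional in the other 3 numbers. Boxes span the quartiles with a line at the median, and whiskers the 10th to 90th percentiles; the animal-higher box of number 5 lies at 13.3% to 20.3%, above the upper quartiles of the other 3 numbers.

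Most transcripts with a 4-fold or larger difference were low at the 8-cell stage, in libraries that the calls at 110 cells did not use. The mean of both hemispheres at 8 cells was under 1 RPKM for 128 of the 158 animal-higher and 245 of the 297 vegetal-higher models of this size. Over all calls, animal-higher models had medians of 43.3 RPKM in animal hemispheres and 15.8 RPKM in vegetal ones at 110 cells, and 9.01 and 8.35 RPKM at 8 cells. All vegetal-higher models together had medians of 1.34 RPKM in animal hemispheres and 19.5 RPKM in vegetal ones at 110 cells, and 0.699 and 0.711 RPKM at 8 cells. At 8 cells 6 models were called in all (0.0507%), each vegetal-higher at both stages. No model was called animal-higher at 8 cells by limma with the block, and 1 was without it, while 1008 models in either direction had an unadjusted p under 0.05.

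Calls were most frequent among models with a mean under 1 RPKM over both hemispheres at 8 cells. Of 5134 such models listed, 1064 passed the filter, and of these 202 were animal-higher and 350 vegetal-higher, or 51.9%. Because such a model had to reach 1 RPKM at 110 cells in 4 libraries, the filter itself sets part of this share. From 1 to 5 RPKM 51 and 79 of 1633 models were called (7.96%), and from 5 to 20 RPKM 61 and 60 of 2979 (4.06%). Without number 5 the lowest class held 135 and 237 calls, the class from 1 to 5 RPKM 41 and 46, and that from 5 to 20 RPKM 30 and 35. Without the block the counts were 150 and 330, 38 and 63, and 31 and 38.

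Among transcripts already abundant at 8 cells the differences were small, and their number and balance depended on the setting. From 20 to 100 RPKM at 8 cells 186 animal-higher and 87 vegetal-higher models were called of 4951 (5.51%), with median log2 differences of 0.53 and -0.58. After quantile normalization the counts were 89 and 119, and after median-ratio rescaling 107 and 123, so the excess of animal-higher calls in this class turned round. They fell to 32 and 35 without number 5, 55 and 42 without number 3, and 27 and 27 without the block. At 100 RPKM or more 62 and 88 of 1211 were called (12.4%), against 70 and 57 after quantile normalization and 36 and 118 after rescaling. Here 11 and 28 were left without number 5, 18 and 33 without number 3, and 8 and 24 without the block. Differences of at least 4-fold were rare here, 2 and 0 in the lower of these classes and 0 and 2 in the higher.

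**Figure D4:**
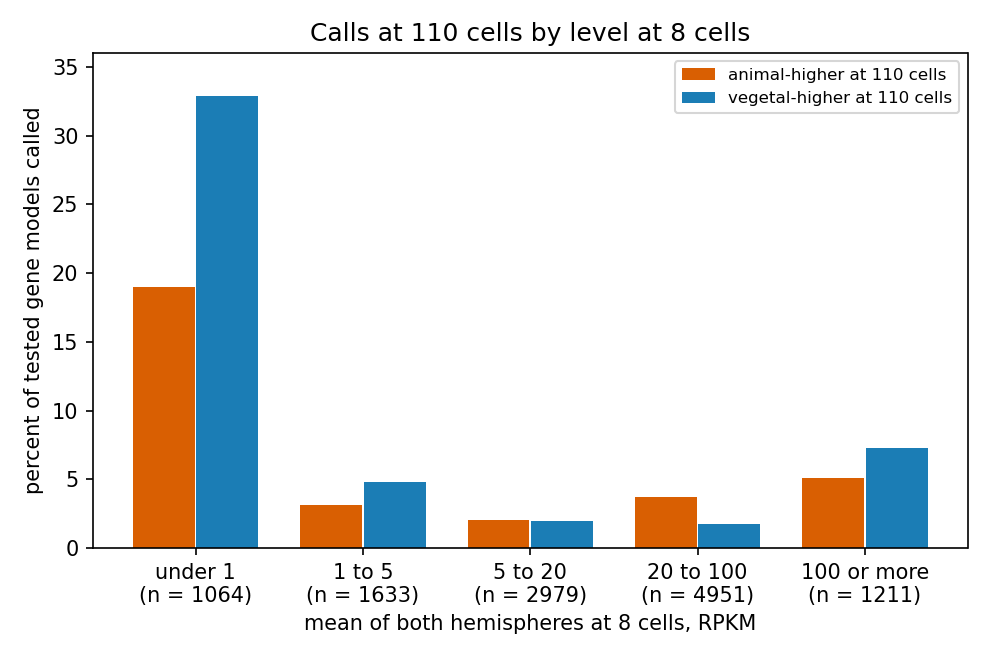
Percent of tested gene models called animal-higher (orange) and vegetal-higher (blue) at 110 cells (vertical axis), by the mean RPKM of both hemispheres at 8 cells (horizontal axis, number of tested models in brackets). The class under 1 RPKM stands highest, at 18.99% animal-higher and 32.9% vegetal-higher, a share that the filter at 110 cells partly sets.

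Some regional transcripts were nevertheless present in both hemispheres at 8 cells. S73.g01608 (S73, 185127 to 188563, plus strand, best match KH.C7.521) stood at 124, 79.4, 43.9 and 152 RPKM in animal libraries and at 11.9, 7.86, 5.24 and 25.7 RPKM in vegetal libraries at 110 cells. The groups did not overlap, and the highest and lowest numbers were the same in both (log2 2.96 ± 0.15 SE, limma adjusted p = 0.000111). At 8 cells it averaged 10.4 ± 4.56 RPKM in the animal libraries and 10.4 ± 2.64 RPKM in the vegetal libraries (SD, n = 4 each).

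S284.g14098 (S284, 14501 to 17497, plus strand, best match KH.S934.2) stood at 52.4, 26.2, 25.8 and 59.4 RPKM in animal libraries and at 5.01, 5.79, 1.502 and 7.85 RPKM in vegetal libraries at 110 cells. Its lowest animal library lay above its highest vegetal library (log2 2.84 ± 0.25 SE, limma adjusted p = 0.000566). At 8 cells it averaged 7.52 ± 2.80 RPKM in the animal libraries and 7.54 ± 2.36 RPKM in the vegetal libraries (SD, n = 4 each). In the vegetal direction, S1176.g14789 (S1176, 1 to 3612, plus strand, best match KH.C11.4) stood at 13.1, 7.71, 10.8 and 15.9 RPKM in animal libraries and at 241, 51.4, 79.8 and 122 RPKM in vegetal libraries. Its groups lay far apart, although the vegetal values spread over more than a 4-fold range (log2 -3.08 ± 0.24 SE, limma adjusted p = 0.000401). At 8 cells its means were 9.67 ± 1.64 RPKM in the animal libraries and 6.28 ± 3.18 RPKM in the vegetal libraries (SD, n = 4 each), which did not pass the test (limma adjusted p = 0.675).

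S480.g12062 (S480, 9248 to 10663, plus strand, no match named) stood at 14.2, 8.96, 12.4 and 8.14 RPKM in animal libraries and at 213, 68.1, 145 and 94.3 RPKM in vegetal libraries at 110 cells. The groups did not overlap (log2 -3.36 ± 0.17 SE, limma adjusted p = 0.000111). At 8 cells it averaged 61.1 ± 14.9 RPKM in the animal libraries and 422 ± 23.8 RPKM in the vegetal libraries (SD, n = 4 each). The groups did not overlap there either. The log2 difference at 8 cells was -2.80 ± 0.17 SE, which nevertheless did not pass the test (limma adjusted p = 0.0677). The change between the stages did not pass the test (limma adjusted p = 0.328). This model overlaps S480.g14149, and since the libraries did not keep strand, the reads of overlapping models cannot be told apart.

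The difference between the hemispheres changed between the stages in 712 of 11838 models (6.01%), 285 towards the animal side (2.41%) and 427 towards the vegetal side (3.61%) at 110 cells. Of the 562 animal-higher models 268 had such a called change in the same direction and none in the opposite one, and of the 664 vegetal-higher models 420 had one in the same and 2 in the opposite direction. The stage comparison shares the 110-cell libraries with the hemisphere comparison, so these counts overlap by construction. Without number 5, 135 and 271 models had a called change.

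The largest changes towards the animal side were those of S201.g00399 and S146.g12031. S201.g00399 (S201, 129673 to 130643, minus strand, best match KH.C1.1181) stood at 73.0, 58.9, 35.0 and 143 RPKM in animal libraries and at 5.15, 0, 0 and 10.97 RPKM in vegetal libraries at 110 cells. At 8 cells a single animal library had reads of it, at 0.667 RPKM, and every vegetal library stood at 0. Its hemisphere difference changed by 4.38 ± 0.53 SE on the log2 scale (limma adjusted p = 0.000573), a call that was lost with a pseudocount of 0.1 (adjusted p = 0.0629).

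S146.g12031 (S146, 208956 to 211006, plus strand, best match KH.L95.5) stood at 209, 56.0, 55.7 and 208 RPKM in animal libraries and at 4.70, 0.466, 1.24 and 28.8 RPKM in vegetal libraries. Numbers 2 and 5 were the high ones in each hemisphere, and the groups did not overlap. At 8 cells it averaged 0.450 ± 0.591 RPKM in the animal libraries and 0.313 ± 0.463 RPKM in the vegetal libraries (SD, n = 4 each). The change was 4.37 ± 0.62 SE (limma adjusted p = 0.00166), likewise lost with a pseudocount of 0.1 (adjusted p = 0.171).

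Towards the vegetal side the largest changes were those of S31.g00819, at -6.18 ± 0.37 SE, and S42.g07916, at -6.16 ± 0.45 SE (limma adjusted p = 2.74e-05 and 3.65e-05). S42.g07916 (S42, 246315 to 250245, plus strand, best match KH.C1.224) stood at 0, 1.24, 0.212 and 3.87 RPKM in animal libraries and at 90.97, 107, 124 and 127 RPKM in vegetal libraries at 110 cells. The vegetal values were close to one another, while the animal values ran from 0 to 3.87 RPKM, with number 5 the highest. At 8 cells S42.g07916 was at 0 in every vegetal library and at 0, 0, 0.327 and 0.642 RPKM in the animal libraries, in order of size.

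Transcripts abundant in both hemispheres showed smaller differences. S172.g02982 (S172, 170746 to 175238, minus strand, best match KH.C11.648) stood at 379, 214, 194 and 412 RPKM in animal libraries and at 70.2, 71.4, 60.8 and 139 RPKM in vegetal libraries. The lowest animal value lay above the highest vegetal value, which was that of number 5 (log2 1.80 ± 0.15 SE, limma adjusted p = 0.000498). S911.g11803 (S911, 7072 to 8692, minus strand, no match named) stood at 278, 331, 171 and 399 RPKM in animal libraries and at 46.7, 123, 96.8 and 105 RPKM in vegetal libraries. Its groups were nearer to each other and did not overlap (log2 1.67 ± 0.25 SE, limma adjusted p = 0.00666).

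S126.g14611 (S126, 111249 to 111749, plus strand, no match named) stood at 145, 120.0, 119 and 227 RPKM in animal libraries and at 506, 543, 544 and 586 RPKM in vegetal libraries. The vegetal libraries were nearly level, and all lay above the highest animal library (log2 -1.87 ± 0.14 SE, limma adjusted p = 0.000362). It was also among the 6 models called at 8 cells, with a log2 difference of -1.72 ± 0.09 SE there (limma adjusted p = 0.0447). All 8-cell calls, this one included, were lost without any 1 number, with a pseudocount of 0.1 or without the filter. S126.g09788, from 109754 to 111222 on the same strand, stood at 62.6, 46.4, 61.5 and 49.2 RPKM in animal libraries and at 331, 159, 169 and 167 RPKM in vegetal libraries. The vegetal library of number 2 was far above its group, and the groups did not overlap (log2 -1.83 ± 0.15 SE, limma adjusted p = 0.000431). Both models overlap S126.g01852, so their values are not independent.

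Whole embryos at 110 cells lay between the hemispheres for most called genes, on libraries that took no part in the calls. On group means 518 of 562 animal-higher models (92.2%) and 604 of 664 vegetal-higher models (91.0%) had a whole-embryo level between the hemisphere levels. Within single numbers the shares were lower, at 72.7% to 81.9% for animal-higher and 75% to 84.2% for vegetal-higher models. No such share was taken over uncalled models, so these shares cannot be read as particular to the called ones. The median whole-embryo level was 28.3 RPKM for animal-higher models, against 43.3 RPKM in animal hemispheres and 15.8 RPKM in vegetal ones. For vegetal-higher models it was 10.5 RPKM, against 1.34 RPKM in animal hemispheres and 19.5 RPKM in vegetal ones. S31.g00819 stood at 51.8, 63.1, 45.0 and 42.4 RPKM in whole embryos and S182.g13272 at 75.2, 65.2, 65.9 and 81.8 RPKM, in each case below every library of the higher and above every library of the lower hemisphere. This did not hold for every named model. S480.g12062 stood at 7.74, 14.2, 32.7 and 22.5 RPKM in whole embryos, and the first of these values lay below its lowest animal library, at 8.14 RPKM.

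The position between the hemispheres differed from number to number. Over the models 4-fold regional in the other 3 numbers, whole embryos stood at a median of 41.0%, 23.8%, 54.2% and 18.8% of the way from the lower to the higher hemisphere for animal-higher models in numbers 2, 3, 4 and 5. For vegetal-higher models the medians were 50.6%, 30.3%, 42.3% and 34.3%. A whole-embryo library that was a plain mixture of the hemisphere libraries of its number would give medians that sum to about 100%. The sums were 91.6% and 96.4% in numbers 2 and 4, and 54.1% and 53.1% in numbers 3 and 5.

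**Figure D5:**
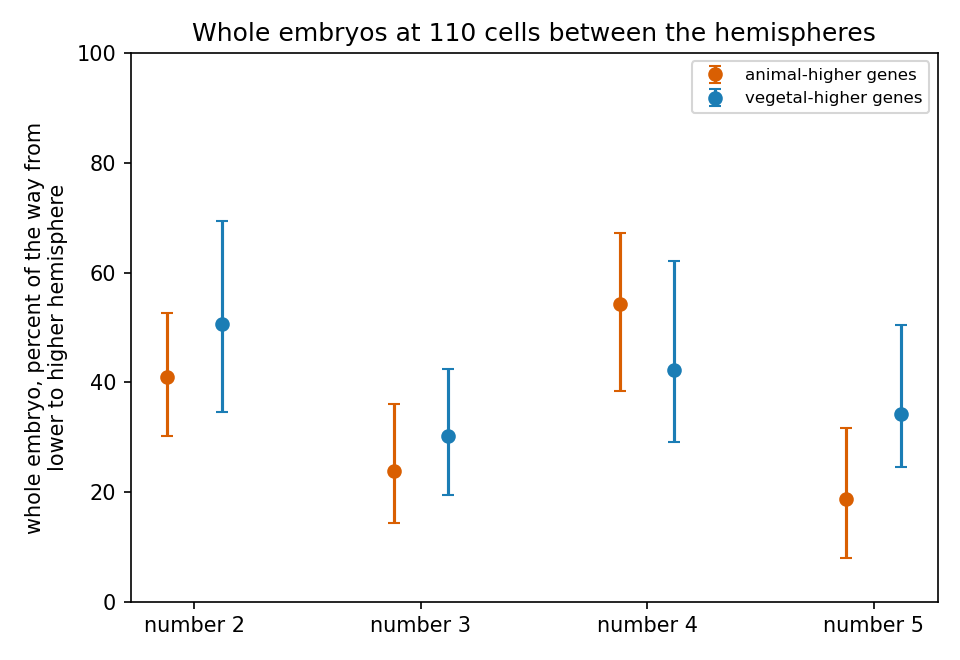
Median position of whole-embryo libraries between the hemispheres of their number (vertical axis, percent of the way from the lower to the higher hemisphere) for animal-higher (orange) and vegetal-higher models (blue), with bars from the lower to the upper quartile. In numbers 3 and 5 both medians lie below 35%, and in numbers 2 and 4 they lie between 41.0% and 54.2%.

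Called models made up a modest part of each library. Animal-higher models held 6.27 ± 0.336% of reads in genes in animal and 3.61 ± 0.140% in vegetal hemispheres, with 4.65 ± 0.0953% in whole embryos (SD, n = 4 each). Vegetal-higher models held 5.02 ± 0.381% in animal and 8.92 ± 0.782% in vegetal hemispheres, with 6.62 ± 0.449% in whole embryos. At 8 cells the animal-higher models held 4.52 ± 0.0989% in animal and 3.97 ± 0.116% in vegetal hemispheres. The vegetal-higher models held 4.39 ± 0.286% and 5.55 ± 0.146% there. RPKM values of a library sum to a nearly fixed total, so a larger share for some models lowers the rest.

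Calls were found in every class of length, and more often in those of middle length. Of models with 1000 to 2000 exon bases 12.8% were called, of those under 500 bases 8.36%, and of those of 4000 bases or more 6.15%. Median exon length was 1556 bases for animal-higher and 1449 bases for vegetal-higher models, against 1611 bases for all models tested. Models with a KH best match were animal-higher in 426 and vegetal-higher in 500 of 8488 cases, and models without a named match in 128 and 140 of 2922 cases. Models matched to another protein record were animal-higher in 8 and vegetal-higher in 24 of 427 cases, which is 1.87% and 5.62%, beside 4.75% and 5.61% over all models.

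Several gene models often name the same best match and may be copies of 1 gene, or fragments of it, whose reads the counting could have split or shared. Of 1319 such groups of tested models, 83 held at least 2 called models. In 19 of these every call was animal-higher, in 43 every call was vegetal-higher, and in 21 the calls ran in both directions. The groups held 181 animal-higher (5.72%) and 250 vegetal-higher (7.90%) of 3163 models. Models with a match of their own numbered 5325, of which 245 were animal-higher (4.60%) and 250 vegetal-higher (4.69%), beside 4.75% and 5.61% over all models tested.

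The group with the most calls shared the best match KH.C8.649 and was picked once these values were known. Of its 10 models 9 were tested, and 8 on 5 scaffolds were vegetal-higher, beside 5.61% of all models tested. Models that share a match may share reads, so these calls cannot be taken as independent. S1.g06718 and S1.g06881 had equal values in the whole embryos of numbers 3 and 5, at 6.19 and 28.3 RPKM. The 8 had at least 1 RPKM in every vegetal library, which by itself passes the filter. These 8 averaged 0 to 1.26 RPKM in animal and 24.6 to 87.8 RPKM in vegetal hemispheres, with log2 differences of -4.23 to -5.68 and limma adjusted p of 0.00194 or less. At 8 cells none of them had a group mean above 0.460 RPKM. The remaining tested model, on scaffold S14, was present in both hemispheres. It stood at 58.5, 48.4, 104 and 56.0 RPKM in animal libraries and at 113, 52.4, 74.5 and 90.1 RPKM in vegetal libraries, which overlapped (limma adjusted p = 0.432). The untested model was at 0 in all 8 libraries.

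Models matched to KH.S1432.1 numbered 16, of which 5 passed the filter and all 5 were vegetal-higher, with means of 0 to 0.367 RPKM in animal and 3.12 to 7.43 RPKM in vegetal hemispheres. None had more than 0 RPKM in either hemisphere at 8 cells. They had passed through the vegetal libraries, so the count says nothing of the 11 models that did not pass, of which 7 had a higher vegetal than animal mean. The call of the model on S818 was lost without number 3, 4 or 5 (limma adjusted p = 0.0646, 0.0614 and 0.0889). The 3 models matched to KH.C1.1181, among them S201.g00399, were all animal-higher, beside 4.75% of all models tested, with log2 differences of 1.88 to 4.56. This group was 1 of 5 with at least 3 animal-higher calls and, like KH.S1432.1, was picked once these values were known. Each of its 3 models had at least 1 RPKM in every animal library, which by itself passes the filter. The call of the weakest, on S453, was lost without number 3 or number 5 (limma adjusted p = 0.0536 and 0.0616).

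Models that name the same match could also lie on opposite sides. The widest gap was that of KH.C7.521, chosen after its values were seen. Its animal-higher model is S73.g01608, described above. Its model on scaffold S138, from 222101 to 225633, stood at 0, 1.47, 0.220 and 0.667 RPKM in animal libraries and at 20.4, 33.7, 27.4 and 36.9 RPKM in vegetal libraries. The groups did not overlap (log2 -4.32 ± 0.22 SE, limma adjusted p = 0.000111), and the third model did not pass the filter.

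Called models often stood next to another with the same call on a scaffold. Of 548 animal-higher models with a tested neighbour 177 (32.3%) had an animal-higher one beside them, against 8.46% of all tested models and 5.91% of vegetal-higher models. Of 626 vegetal-higher models 258 (41.2%) had a vegetal-higher one beside them, against 9.48% of all tested models and 6.75% of animal-higher models. Overlapping models share reads, and models with the same match may, so pairs that overlap or name the same match were left out in a further count. The shares were then 21.2% for animal-higher and 29.8% for vegetal-higher models, against 7.54% and 8.47% of all tested models. No test was made of these shares.

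Unbroken runs of 5 called models occurred 4 times, each vegetal-higher, and no animal-higher run was longer than 4. Runs were not counted again without overlapping models, which share reads. On S1 the model from 953852 to 955350 lies within another of its run. On S104 the model from 234791 to 238255 overlaps its neighbour. The run on S104, from 222978 to 238255, is centred on S104.g10185 and held 5 models with 5 different best matches, with log2 differences of -1.07 to -6.03. Its outermost members were at 0 and 9.49 RPKM and at 37.8 and 78.1 RPKM in animal and vegetal hemispheres. The run on S138, from 200769 to 228001, holds the vegetal-higher model matched to KH.C7.521 among 5 models with different matches and differences of -1.39 to -4.32. The run on S1, from 938620 to 963522, holds 3 models matched to KH.C8.649.

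The remaining run lay on S964, the scaffold of the ND5 model, from 1033 to 4314. All 10 tested models of S964 had a higher vegetal than animal mean, with log2 differences of -1.22 to -1.75. Of them 8 were called, beside 5.61% vegetal-higher calls over all models tested. The scaffold came up through a run of these calls, and its models may not be independent. The ND5 model itself, S964.g01698, stood at 894, 1571, 726 and 1406 RPKM in animal libraries and at 4243, 1453, 1704 and 4018 RPKM in vegetal libraries. In number 3 the order was the reverse of the other numbers, and the groups overlapped. The log2 difference was -1.22 ± 0.34 SE, which missed the threshold (limma adjusted p = 0.0697) and passed it without number 3 (adjusted p = 0.0104).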

How the data were processed

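RNA of hemispheres and whole embryos was taken up in Trizol and made into Illumina TruSeq libraries without strand, per the labels' protocols. HISAT2 is listed per the submitters' processing notes. The sources used here name no version of it, no build, no read counter and no handling of multi-matching reads. The authors deposited RPKM values for 16078 gene models and an annotation of 16082. Multiplied by exon length, the RPKM values added up to 1.01 to 1.03 M in each library, so values are relative to reads in genes. A step worth 1 read was fitted to low values, of which 63.3% to 68.4% lay within 0.1 reads of a whole number (20% by chance). Reads were thus recovered only approximately and no count model was used; floors of 3 reads cover counting error only.

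Values were tested as log2(RPKM + 1) by limma 3.58.1 (R 4.3.3), with a trend in the prior variance, two-sided, adjusted by Benjamini-Hochberg over 11838 models, threshold 0.05. Fold changes on this scale understate the change of low genes. Figures were drawn with matplotlib 3.10.9. The main fits took the hemisphere libraries alone, with the replicate number (within stage) as a block, since the comparison is defined by pairs of the same number. The labels give these numbers without their meaning. Deviations from the group means correlated at 0.470, 0.433, 0.416 and 0.515 between same-numbered animal and vegetal libraries at 110 cells, and at -0.29 to 0.03 between others, so libraries of 1 number were treated as pairs. Leaving out a library also removes its partner.

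Named genes are the 2 in each direction with the largest difference among called models with at least 5 RPKM in the higher hemisphere and no overlap between groups. The same was done among models at 5 RPKM or more in all groups at 8 cells, for the change between stages, and among models at 50 RPKM or more in both hemispheres. For the change between stages it was the paired differences of the stages that did not overlap. The rule also took any listed marker that the files name. Of 13 mitochondrially encoded genes 1 was found, and none of 12 notochord, endoderm and mesenchyme, 7 muscle, and 11 epidermis and neural plate names; names of a single letter were not searched. Members, lists and named genes were chosen with earlier results of these data known. Alternatives were other pseudocounts (0.1 and 5), filters, scalings, blocks, a fit without trend, and numbers left out. Shared matches, neighbours and restricted genes were defined afterwards.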

Additional observations from a re-analysis of the deposited data

Results flagged for a closer look

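Among 64 groups of 4 libraries tested for a value far from the rest, 5 were flagged. Chance alone flags about 1 in 20, so their number is not far above that rate. The groups share libraries and are not independent. Of the 5 flags, 4 concern animal-higher transcripts in the vegetal library of number 5. S182.g13272 stood there at 11.8 RPKM, against 2.19 to 3.65 RPKM in the other vegetal libraries. S146.g12031 stood at 28.8 RPKM, against 0.466 to 4.70 RPKM. S172.g02982 stood at 139 RPKM, against 60.8 to 71.4 RPKM, but its animal library of number 5 was also the highest of its group, at 412 RPKM. The flags of single models took the vegetal libraries alone and not their pairing with animal libraries. The median level of animal-higher genes in the other hemisphere was 16.3% in number 5, against 5.87% to 7.17%. The fifth was S126.g09788, at 331 RPKM in the vegetal library of number 2, against 159 to 169 RPKM.

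The hemisphere difference changed between the stages by a test of the change itself (limma with a block, adjusted p under 0.05) in 712 models. On the log2 scale, the named models changed towards the animal side by 4.38 (S201.g00399), 4.37 (S146.g12031), 4.03 (S182.g13272), 3.89 (S201.g08639), 3.03 (S73.g01608), 2.86 (S284.g14098) and 1.119 (S172.g02982). Towards the vegetal side they changed by -6.18 (S31.g00819), -6.16 (S42.g07916), -6.00 (S104.g10185) and -3.74 (S1176.g14789). These models were picked for large changes, or for large hemisphere differences at the later stage, in the same libraries. Such differences enter the change itself, so the listed changes are no further result. The called changes of S201.g00399 and S146.g12031 were lost with a pseudocount of 0.1 (limma adjusted p = 0.0629 and 0.171).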

How the results depend on the processing

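At 110 cells 1226 models were called with the replicate number as a block, and 736 (254 animal-higher, 482 vegetal-higher) with no replicate block, 730 of them among the 1226. With the block within stage over all 24 libraries 2117 were called, 1188 of them animal-higher. Without a trend 365 were animal-higher, and with a filter of 5 RPKM 436 were vegetal-higher. Leaving out a number gave 630 to 921 calls, 249 to 390 animal-higher and 381 to 544 vegetal-higher. In each of these fits every tested model of the 1226 kept its sign. These fits reuse the libraries that made the calls, and the block leaves the log2 difference as it is. The kept signs were thus largely fixed beforehand and are no further test. At 8 cells the 6 calls, all vegetal-higher, became 10 with no replicate block (1 animal-higher), 10 with a filter of 5 RPKM, 3 after quantile normalization, and 0 with a pseudocount of 0.1 (992 at an unadjusted p under 0.05 by limma), without a filter (1179) or without any number (596 to 1221). The 712 called changes between stages became 464 with a pseudocount of 0.1 (141 towards animal), 428 with a filter of 5 RPKM (183 towards animal, 245 towards vegetal) and 406 to 626 without a number (135 to 247 and 271 to 379). With no replicate block 179 were towards animal. The cause of these differences was not tested. By construction the filter of 5 RPKM leaves fewer models, and a left-out number fewer libraries. For single models 492 comparisons with an alternative kept their side of the threshold, 7 lost it, 2 gained it and none reversed. Most of these models were picked for large differences in the same libraries, so the lack of reversals is no further result. The shallower vegetal libraries limit what can be said of low vegetal levels more than of low animal ones.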
